A study of Mus musculus with 18 samples.

Results

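The expression of 10 circadian clock genes was described in bulk RNA-seq of mouse colon. They were *Per1*, *Per2*, *Per3*, *Cry2* and *Ciart*, which encode repressors of the clock, *Nr1d1* and *Nr1d2*, which encode nuclear receptors of its second loop, *Dbp*, an output transcription factor, and *Arntl* and *Npas2*, which encode activators. These are 10 of the 47729 genes in the count table, and all 10 were among the 16937 genes that passed the filter on low counts. The members were chosen from results of these same 18 libraries, so their levels and fold changes are given as a description, without a test. Tests are given for 18 other genes of the clock and its outputs.

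The study compared WT mice with mice that lack *Cldn2*, the gene of the tight junction protein claudin-2, in health and after colonic injury. All mice were on a C57BL/6 background, and by the study's methods the *Cldn2*KO mice were bred with WT mice and set against age- and sex-matched littermates. There were 6 groups of 3 libraries: WT control and *Cldn2*KO control mice, WT and *Cldn2*KO mice labelled DSS-Recovery, and WT and *Cldn2*KO mice labelled AOM-DSS. Dextran sulfate sodium (DSS) injures the colonic epithelium. Recovery mice had been allowed to heal after DSS colitis. AOM/DSS mice had received a single dose of the carcinogen azoxymethane (AOM, 10 mg/kg) and 3 cycles of 2.5% DSS, a model of colitis-associated cancer. Ages, the length of recovery and the hour at which tissue was taken are not given in the sources used here. The labels name no Cre driver or tissue for the knockout. Titles of the control mice follow another naming scheme than those of the treated mice, so a difference in how or when the controls were handled cannot be told apart from treatment.

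The clock is a feedback loop of transcription that runs in nearly every cell. ARNTL (also called BMAL1) pairs with CLOCK or NPAS2, binds E-box sequences and turns on the Per, Cry, Nr1d and *Dbp* genes, and the PER and CRY proteins then block the pair. NR1D1 and NR1D2 (REV-ERB alpha and beta) repress *Arntl* and *Npas2*, which ROR receptors activate. DBP, TEF and HLF bind D-box sequences, as in the Per genes, and NFIL3 represses through the same sequences. Over a day, *Dbp* and *Nr1d1* are therefore high when *Arntl* is low, and the colon, in its epithelium as well as its muscle, shows this rhythm and is sensitive to the time of feeding.

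Promoter windows of members were searched for these sequences, and the stretches below are shown because the E-box and the D-box are the elements through which members are known to be driven. The RefSeq promoter table (GRCm38.p6, 250 bases before to 50 after each start) held windows for 9 of the 10 members. E-boxes (CACGTG) were found in 2 members, the related letters CACGTT in 2, D-boxes (TTANGTAA) in 1 and ROR elements (TNGGTCA) in 3, on either strand. Of 32851 promoter windows of mouse genes, 7.15% held CACGTG, 4.68% CACGTT, 2.32% TTANGTAA and 10.97% TNGGTCA. *Ciart* held 3 E-boxes, at -116, -58 and -44 from its start, *Per1* held 1 at -166 from 1 of its 2 RefSeq starts, which lies inside the gene as annotated in GENCODE, and *Per3* held 2 D-boxes at -205 and -158. In the lines that follow, the promoter strand is written 5′ to 3′ with the matches in capitals. The *Ciart* stretch is chr3:95882247-95882364 (minus strand), the *Per1* stretch chr11:69098763-69098808 (plus strand) and the *Per3* stretch chr4:151044796-151044890 (minus strand).
Ciart: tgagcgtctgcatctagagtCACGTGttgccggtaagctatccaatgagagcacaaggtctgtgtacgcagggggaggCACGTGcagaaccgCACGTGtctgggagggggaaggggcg
Per1: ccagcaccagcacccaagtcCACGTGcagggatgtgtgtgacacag
Per3: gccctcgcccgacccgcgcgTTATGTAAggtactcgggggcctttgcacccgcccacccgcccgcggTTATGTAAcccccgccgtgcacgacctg

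**Figure D1:**
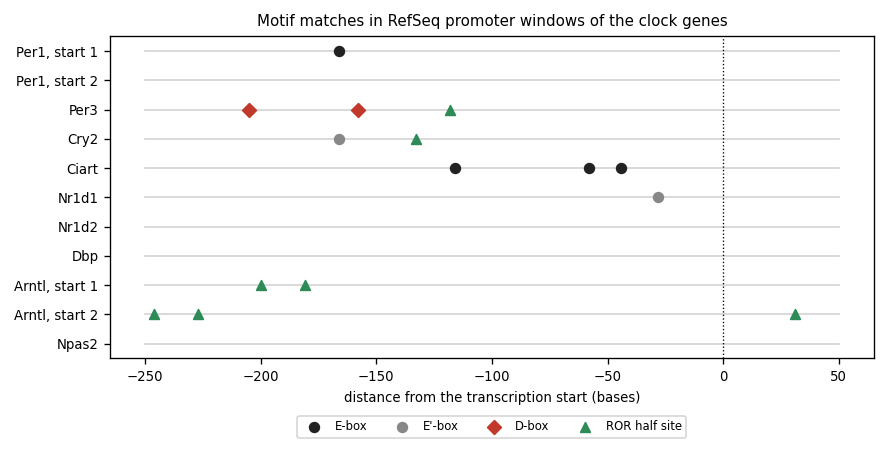
Positions of motif matches in the promoter windows of the members that have one; the x axis is the distance in bases from the transcription start, each grey line is a window, and symbols mark the motif. *Ciart* carries 3 E-boxes between -116 and -44 and *Per3* carries 2 D-boxes; the windows of *Dbp*, *Nr1d2* and *Npas2* hold no match to these letters.

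Total counts were 17.6 to 27.4 M reads per library, so each member had at least 46 reads in every library (*Ciart*, lowest) and up to 3742 (*Nr1d2*, highest). The 8 epithelial markers summed to 11872 to 22445 CPM (read counts scaled to the library total), with *Epcam* at 1815 to 2434 CPM. The 7 colon markers varied far more, from 1297 CPM in an AOM/DSS library to 56737 CPM in a recovery library, with *Car4*, *Aqp8* and *Slc26a3* as low as 39.9, 29.2 and 70.8 CPM. *Cldn2* stood at 44.5 to 504 CPM in WT and 0.0555 to 0.557 CPM in *Cldn2*KO libraries. The posterior Hox genes, which mark the distal colon, summed to 497 to 866 CPM in 11 of the 12 control and AOM/DSS libraries, but to 3.54 CPM in WT control replicate 2 and to 0.689 to 1.51 CPM in all 6 recovery libraries. The study's results state that RNA of recovery mice came from the distal colon. Recovery and the posterior Hox level therefore cannot be told apart beyond that 1 library. WT control replicate 2 was also the highest in adipose markers (466 CPM, against 7.14 to 117 CPM in the others). *Xist* exceeded 100 CPM in 6 libraries, namely replicates 2 and 3 of WT recovery, *Cldn2*KO recovery and *Cldn2*KO AOM/DSS, so the sexes were not balanced over groups. Values without WT control replicate 2 are given beside many of the comparisons with WT controls. In bulk tissue, fewer cells of a type and less RNA per cell cannot be told apart, and smooth muscle markers, given beside the results, differed widely between groups. Levels are CPM after TMM scaling, in the order replicate 1, 2 and 3, and log2 fold changes (log2FC) are from the edgeR fit with its SE (n = 3 libraries per group).

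*Per2* (ENSMUSG00000055866, GRCm38 chromosome 1, 91415982 to 91459324, minus strand), a core repressor, was higher in the *Cldn2*KO libraries of every treatment. Its level was 35.9, 42.6 and 49.1 CPM in the WT controls and 118, 130.0 and 99.6 CPM in the *Cldn2*KO controls. It was 33.2, 36.9 and 35.2 CPM in WT recovery and 51.6, 56.9 and 48.5 CPM in *Cldn2*KO recovery. In AOM/DSS mice it was 25.1, 29.98 and 19.8 CPM in WT and 31.5, 55.8 and 46.95 CPM in *Cldn2*KO mice. In each of the 3 treatments every *Cldn2*KO library lay above every WT library, and the *Cldn2*KO controls lay above all other libraries. The log2FC of *Cldn2*KO over WT was 1.45 ± 0.20 in controls (2.73-fold), 0.58 ± 0.20 in recovery and 0.84 ± 0.20 after AOM/DSS. Without WT control replicate 2 the control value was 1.43 ± 0.23.

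*Per3* (ENSMUSG00000028957, GRCm38 chromosome 4, 151003652 to 151044665, minus strand), a weaker repressor that is widely used as a read-out of clock phase, was higher in the *Cldn2*KO controls. It stood at 38.8, 54.7 and 31.1 CPM in WT controls and 84.8, 104 and 67.1 CPM in *Cldn2*KO controls, a log2FC of 1.04 ± 0.37 with no overlap between libraries (1.26 ± 0.41 without WT control replicate 2). In recovery it was 33.4, 53.6 and 42.2 CPM in WT and 73.7, 31.4 and 31.7 CPM in *Cldn2*KO mice (log2FC 0.08 ± 0.36). After AOM/DSS it was 36.3, 60.7 and 27.4 and 31.7, 56.9 and 44.2 CPM (log2FC 0.09 ± 0.36). In both of those treatments the genotypes overlapped, and 1 *Cldn2*KO recovery library, replicate 1, was more than 2-fold above the other two.

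*Per1* (ENSMUSG00000020893, GRCm38 chromosome 11, 69095217 to 69109960, plus strand), the period gene that also answers quickly to hormones and feeding, was low in the AOM/DSS libraries. It was 36.5, 53.6 and 32.5 CPM in WT controls and 37.5, 55.8 and 52.8 CPM in *Cldn2*KO controls, with overlap (log2FC 0.25 ± 0.21). With WT control replicate 2 left out the log2FC was 0.47 ± 0.21, and every *Cldn2*KO control lay above the WT controls. After AOM/DSS it was 13.02, 17.8 and 20.1 CPM in WT and 21.6, 24.4 and 18.4 CPM in *Cldn2*KO mice. All 6 AOM/DSS libraries lay below all 12 others, and the log2FC against control was -1.27 ± 0.21 in WT (2.41-fold lower; -1.04 ± 0.20 without WT control replicate 2) and -1.18 ± 0.21 in *Cldn2*KO mice. In recovery *Per1* stood at 31.5, 31.1 and 28.4 CPM in WT and 53.7, 57.8 and 44.7 CPM in *Cldn2*KO mice, apart by a log2FC of 0.78 ± 0.21.

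*Cry2* (ENSMUSG00000068742, GRCm38 chromosome 2, 92403646 to 92434043, minus strand), the partner of the PER proteins in repression, was also low in the AOM/DSS libraries. It was 26.4, 47.1 and 20.6 CPM in WT controls and 42.9, 50.9 and 47.1 CPM in *Cldn2*KO controls. WT control replicate 2 was the highest of its group, and without it the log2FC of *Cldn2*KO over WT controls went from 0.58 ± 0.27 to 0.97 ± 0.24. In recovery it was 30.9, 32.1 and 34.4 CPM in WT and 54.8, 54.9 and 37.2 CPM in *Cldn2*KO mice, which did not overlap. AOM/DSS values were 9.25, 15.9 and 14.3 and 16.6, 24.3 and 22.5 CPM, again without overlap (log2FC 0.68 ± 0.27) and below controls in both genotypes (-1.25 ± 0.27 in WT, -0.85 ± 0.23 without WT control replicate 2, and -1.15 ± 0.27 in *Cldn2*KO mice). *Cry2* shares 295 exon bases with *D930015M05Rik* on the other strand. That gene had 296 reads in all against 11779 for *Cry2*.

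*Ciart* (ENSMUSG00000038550, GRCm38 chromosome 3, 95878503 to 95882251, minus strand), a repressor of CLOCK and ARNTL with a strong daily rhythm, was high in the *Cldn2*KO controls. It was 6.13, 14.4 and 4.94 CPM in WT controls and 24.7, 25.2 and 26.96 CPM in *Cldn2*KO controls (3.03-fold, log2FC 1.60 ± 0.49). Without WT control replicate 2, which was more than 2-fold above the rest of its group, the log2FC was 2.19 ± 0.51. In the other four groups no library exceeded 10.2 CPM. Values were 3.54, 9.83 and 4.73 CPM in WT recovery and 5.35, 5.61 and 5.95 CPM in *Cldn2*KO recovery. They were 3.19, 5.82 and 2.18 CPM in WT AOM/DSS and 7.99, 10.2 and 2.96 CPM in *Cldn2*KO AOM/DSS. Against their own controls, *Cldn2*KO mice were lower in recovery (-2.18 ± 0.50) and after AOM/DSS (-1.86 ± 0.50) in all libraries, while the WT groups overlapped.

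*Nr1d1* (ENSMUSG00000020889, GRCm38 chromosome 11, 98767932 to 98775333, minus strand), the heme-binding repressor of *Arntl*, was low in the recovery libraries of both genotypes. It was 87.8, 70.7 and 70.2 CPM in WT controls and 15.9, 40.5 and 16.7 CPM in WT recovery (log2FC -1.65 ± 0.41). In *Cldn2*KO mice it was 106, 98.4 and 87.3 CPM in controls and 20.5, 14.8 and 32.03 CPM in recovery (log2FC -2.12 ± 0.42, 4.34-fold lower). All 6 recovery libraries lay below all 6 controls, and leaving out WT control replicate 2 gave -1.73 ± 0.45 in WT mice. After AOM/DSS it was 49.4, 64.4 and 19.9 CPM in WT and 69.8, 78.4 and 50.9 CPM in *Cldn2*KO mice. *Nr1d1* shares 263 exon bases with *Thra* on the other strand, so its counts are uncertain. The log2FC of *Thra* between recovery and control was -0.34 ± 0.16 in WT and 0.04 ± 0.15 in *Cldn2*KO mice. Between AOM/DSS and control it was -0.515 ± 0.156 in WT, where *Nr1d1* was also lower, and 0.127 ± 0.155 in *Cldn2*KO mice. Between genotypes it was -0.156 ± 0.155 in controls, 0.219 ± 0.155 in recovery and 0.487 ± 0.155 after AOM/DSS. Its part in the *Nr1d1* counts was not tested.

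*Nr1d2* (ENSMUSG00000021775, GRCm38 chromosome 14, 18204054 to 18239127, minus strand), its close relative, was the most abundant member and the flattest across groups. Its group means ran from 109.8 ± 13.2 CPM in *Cldn2*KO AOM/DSS to 169.7 ± 32.1 CPM in *Cldn2*KO controls (SD, n = 3), a span of 1.55-fold. Single libraries ranged more widely, from 76.9 CPM in *Cldn2*KO recovery replicate 2 to 201 CPM in WT recovery replicate 2. The libraries of the *Cldn2*KO controls (173, 200.02 and 136 CPM) lay above those of *Cldn2*KO AOM/DSS (95.4, 121 and 113 CPM), the single treatment or genotype comparison of *Nr1d2* without overlap among all libraries. Without WT control replicate 2 the control genotypes did not overlap either (log2FC 0.52 ± 0.32, against 0.31 ± 0.30 with it).

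*Dbp* (ENSMUSG00000059824, GRCm38 chromosome 7, 45705247 to 45710203, plus strand), an output factor with a wide daily swing, had the widest range of all members. It was 27.2, 40.3 and 18.4 CPM in WT controls and 68.6, 86.4 and 68.9 CPM in *Cldn2*KO controls (log2FC 1.38 ± 0.62, or 1.69 ± 0.70 without WT control replicate 2). It was 10.5, 28.7 and 8.99 CPM in WT recovery and 12.4, 2.97 and 11.02 CPM in *Cldn2*KO recovery. It was 7.89, 23.8 and 5.30 CPM in WT AOM/DSS and 19.4, 38.7 and 13.4 CPM in *Cldn2*KO AOM/DSS. The *Cldn2*KO controls were above all other 15 libraries. Group means differed 8.47-fold between the highest, *Cldn2*KO control (74.6 ± 10.2 CPM), and the lowest, *Cldn2*KO recovery (8.80 ± 5.10 CPM). Against its control the log2FC of recovery was -3.08 ± 0.66 in *Cldn2*KO and -0.84 ± 0.62 in WT mice, where libraries overlapped (-0.54 ± 0.66 without WT control replicate 2). *Dbp* shares 539 of its 1678 exon bases with *Sphk2* on the other strand, which had more reads (19629 against 9997), so the level of *Dbp* is uncertain. The log2FC of *Sphk2* was -0.53 ± 0.16 between control genotypes and 0.13 ± 0.16 between *Cldn2*KO recovery and control. Against WT control it was -0.445 ± 0.157 in recovery and -0.657 ± 0.158 after AOM/DSS, the same sign as *Dbp*. It was 0.071 ± 0.157 in *Cldn2*KO AOM/DSS against control. Between genotypes it was 0.054 ± 0.157 in recovery and 0.204 ± 0.157 after AOM/DSS. Its part in the *Dbp* counts was not tested.

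*Arntl* (ENSMUSG00000055116, GRCm38 chromosome 7, 113207465 to 113314122, plus strand), the activator without which the clock stops, overlapped between the control genotypes when all libraries were kept. It was 33.9, 11.8 and 32.02 CPM in WT controls and 26.03, 28.9 and 19.97 CPM in *Cldn2*KO controls (log2FC -0.06 ± 0.41). Leaving out WT control replicate 2 gave -0.42 ± 0.38, and every *Cldn2*KO control lay below the WT controls. In recovery it was 18.8, 4.81 and 15.2 CPM in WT and 17.7, 26.8 and 21.2 CPM in *Cldn2*KO mice. In AOM/DSS mice it was 20.6, 15.2 and 11.3 and 19.6, 17.7 and 17.05 CPM. The 2 lowest of the 18 libraries were WT recovery replicate 2 and WT AOM/DSS replicate 3, followed by WT control replicate 2. Without that control library the log2FC of WT recovery over control changed from -0.99 ± 0.42 to -1.36 ± 0.38.

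*Npas2* (ENSMUSG00000026077, GRCm38 chromosome 1, 39193731 to 39363236, plus strand), which can stand in for CLOCK, was 27.2, 13.7 and 21.2 CPM in WT controls and 20.8, 19.3 and 15.98 CPM in *Cldn2*KO controls. In recovery it was 13.3, 5.52 and 9.70 CPM in WT and 21.2, 25.4 and 10.9 CPM in *Cldn2*KO mice. The AOM/DSS values were 23.3, 14.8 and 17.4 and 15.6, 13.1 and 18.5 CPM. WT recovery lay below WT control in every library (log2FC -1.12 ± 0.34, or -1.36 ± 0.35 without WT control replicate 2), and the genotypes overlapped in every treatment.

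**Figure D2:**
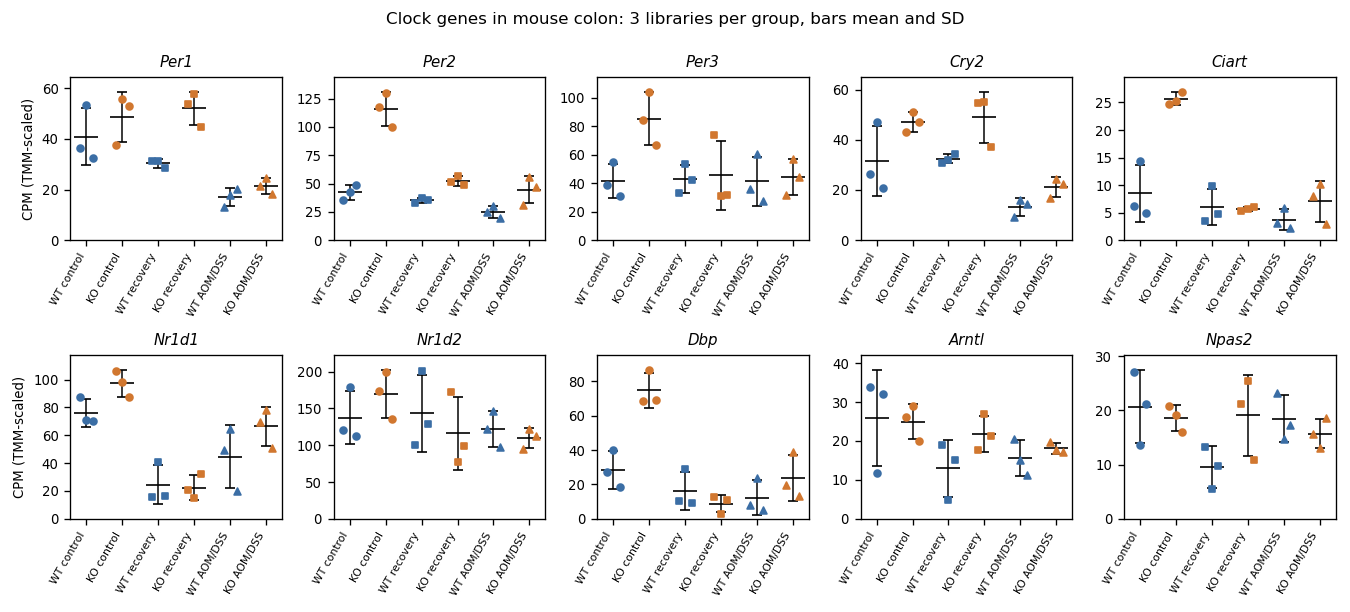
Levels of the 10 members, in TMM-scaled CPM on the y axis, in the 3 libraries of each group (blue WT, orange *Cldn2*KO; circles control, squares recovery, triangles AOM/DSS), with the group mean and SD as black bars. *Ciart* and *Dbp* in the *Cldn2*KO controls lie above all other libraries, and *Nr1d1* in both recovery groups lies below all controls.

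In untreated colon, 8 members had a log2FC of *Cldn2*KO over WT above 0 and the activators *Arntl* and *Npas2* had one below 0. *Per2*, *Per3*, *Ciart* and *Dbp*, 4 of the 10, were higher in all 3 *Cldn2*KO libraries, where 22.2% of all genes tested had groups that did not overlap and 1.17% were called at an adjusted p under 0.05. The 8 period, cryptochrome and output members had a median log2FC of 0.81, against -0.006 over all genes tested. Without WT control replicate 2, 7 members were higher and the 2 activators lower with no overlap, where 38.7% of all genes did not overlap, and the median of the 8 was 1.12. Smooth muscle markers moved with this difference: their sum was 3715 to 5588 CPM in WT and 7624 to 10059 CPM in *Cldn2*KO controls, with all 8 markers higher in every *Cldn2*KO library. Leukocyte markers summed to 1398 to 1663 CPM in WT and 80.2 to 435 CPM in *Cldn2*KO controls, with 4 of 8 lower in every *Cldn2*KO library. The highest values of this list were of *Cd74* (up to 1410.4 CPM) and *Lyz2* (up to 270.4 CPM), with the other 6 markers at 76.7 CPM or less in every library. Epithelial markers summed to 21514 to 22255 CPM in WT and 17140.0 to 20795 CPM in *Cldn2*KO controls, with 3 of 8 lower in every *Cldn2*KO library. Of the 5 posterior Hox genes 2 were higher in every *Cldn2*KO control. The part of these markers in the clock genes was not tested.

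Between the genotypes in recovery, *Per1*, *Per2* and *Cry2*, 3 of the 10, were higher in all *Cldn2*KO libraries, where 23.9% of all genes did not overlap and 0.974% were called. The median log2FC of the 8 members was -0.002 (0.004 over all genes). All 8 smooth muscle markers overlapped there (712 to 2106 CPM in WT and 836 to 1460.4 CPM in *Cldn2*KO mice). Leukocyte markers summed to 293 to 452 CPM in WT and 43.2 to 52.6 CPM in *Cldn2*KO recovery, with 3 of 8 lower in every *Cldn2*KO library. All 6 markers of neurons and glia had a log2FC above 0 (median 0.41), with 2 higher in every *Cldn2*KO library. Of the genes that answer to glucocorticoids 5 of 6 were above 0 (median 0.72), as were 7 of 7 immediate-early genes (median 0.81). After AOM/DSS, *Per2* and *Cry2* were higher in all *Cldn2*KO libraries, where 11.3% of all genes did not overlap and 0.0059% were called, and the median was 0.63 (-0.004 over all genes). The 8 smooth muscle markers and the 6 markers of neurons and glia overlapped between genotypes there, but all had a log2FC above 0, with medians of 1.09 and 0.95. Leukocyte sums were 224 to 364 CPM in WT and 129 to 185 CPM in *Cldn2*KO mice, with 2 of 8 lower in every *Cldn2*KO library. The part of these markers was not tested.

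Between recovery and control, *Per1*, *Nr1d1* and *Npas2* were lower in every WT library, 3 of 10, where 37.7% of all genes did not overlap and 22.2% were called. In *Cldn2*KO mice *Per2*, *Ciart*, *Nr1d1* and *Dbp* were lower, 4 of 10, where 40.3% of all genes did not overlap and 19.4% were called. Medians of the 8 members were -0.35 in WT, which became -0.06 without WT control replicate 2, and -1.03 in *Cldn2*KO mice, with -0.039 and 0.004 over all genes. Without that library 4 members were lower and *Cry2* higher in WT recovery with no overlap, where 58.7% of all genes did not overlap. The log2FC of *Per1* was then -0.21 ± 0.20 (from -0.43 ± 0.21), that of *Cry2* 0.44 ± 0.23 (from 0.05 ± 0.27) and that of *Ciart* 0.09 ± 0.48 (from -0.50 ± 0.49). All 8 smooth muscle markers were lower in recovery than in any control of the same genotype (sums of 712 to 2106 and 836 to 1460.4 CPM), and posterior Hox genes were near 0. Leukocyte sums went from 1398 to 1663 to 293 to 452 CPM in WT mice (6 of 8 markers lower in every library) and from 80.2 to 435 to 43.2 to 52.6 CPM in *Cldn2*KO mice (3 lower and 1 higher). Of 7 colon markers 3 were lower and 1 higher in every WT recovery library, and 4 lower and 2 higher in *Cldn2*KO mice. The 7 small intestine markers summed to 205 to 408 CPM in WT controls and 366 to 1006 CPM in WT recovery. In *Cldn2*KO mice these sums were 86.2 to 176 and 378 to 996 CPM. Of the 4 that passed the count filter, 2 were higher in every WT recovery library and 4 in every *Cldn2*KO one. Of 8 epithelial markers 3 were lower in WT recovery, and 1 lower and 1 higher in *Cldn2*KO mice. Fibroblast sums went from 347 to 442 to 139 to 207 CPM (5 of 5 lower) and from 357 to 569.97 to 115 to 167 CPM (3 of 5 lower). Mitochondrial genes took 7.93% to 9.55% of reads in WT recovery and 4.01%, 8.54% and 4.39% in WT controls, and 7.01% to 9.67% in *Cldn2*KO recovery and 4.13% to 6.33% in *Cldn2*KO controls. None of these was tested for its part in the differences.

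Between AOM/DSS and control, *Per1*, *Per2*, *Cry2* and *Nr1d1* were lower in every WT library, 4 of 10, where 32.2% of all genes did not overlap and 10.4% were called. In *Cldn2*KO mice 9 of 10, all except *Npas2*, were lower in every library, where 29.1% of all genes did not overlap and 0.195% were called. Medians of the 8 members were -0.98 and -1.17, with 0.008 and 0.006 over all genes. Without WT control replicate 2 the WT median was -0.82, and 5 members, *Arntl* among them, were lower with no overlap, where 42.4% of all genes did not overlap. The log2FC of *Arntl* was then -1.09 ± 0.38 (from -0.72 ± 0.42) and that of *Ciart* -0.59 ± 0.48 (from -1.18 ± 0.50). Smooth muscle sums were 562 to 2963 CPM in WT and 2324 to 5824 CPM in *Cldn2*KO AOM/DSS mice, with 7 of 8 markers in WT and 8 of 8 in *Cldn2*KO mice lower than in any control. Neuron and glia markers summed to 33.2 to 62.5 CPM in WT controls and 7.57 to 18.7 CPM in WT AOM/DSS (5 of 6 lower in every library), and to 35.95 to 52.1 and 16.4 to 37.3 CPM in *Cldn2*KO mice (1 of 6 lower). In both genotypes 4 of 7 colon markers were lower in every AOM/DSS library, as were 4 of 8 epithelial markers in WT and 1 of 8 in *Cldn2*KO mice. Leukocyte sums went from 1398 to 1663 to 224 to 364 CPM in WT mice (1 of 8 lower) and from 80.2 to 435 to 129 to 185 CPM in *Cldn2*KO mice (0 of 8 apart). The part of these markers was not tested. The WT and the *Cldn2*KO comparisons share no libraries, but recovery and AOM/DSS are set against the same controls within a genotype.

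Between the genotypes' responses to recovery (the change in *Cldn2*KO minus that in WT mice), the difference was -2.24 ± 0.88 for *Dbp* and -1.69 ± 0.69 for *Ciart* on the log2 scale. For *Npas2* it was 1.15 ± 0.48. These were -2.56 ± 0.93, -2.29 ± 0.66 and 1.38 ± 0.47 without WT control replicate 2. Without WT recovery replicate 2 they were -1.54 ± 0.85, -1.16 ± 0.68 and 0.88 ± 0.46. All 3 kept their sign when any 1 library was left out, but their sizes rested on these libraries. The 10 members lay between -2.245 and 1.154 for recovery, 6 of them below 0 and 4 above. For AOM/DSS the difference was -0.95 ± 0.51 for *Per3* (-0.57 ± 0.49 without WT AOM/DSS replicate 2), with the 10 members between -0.95 and 0.26.

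**Figure D3:**
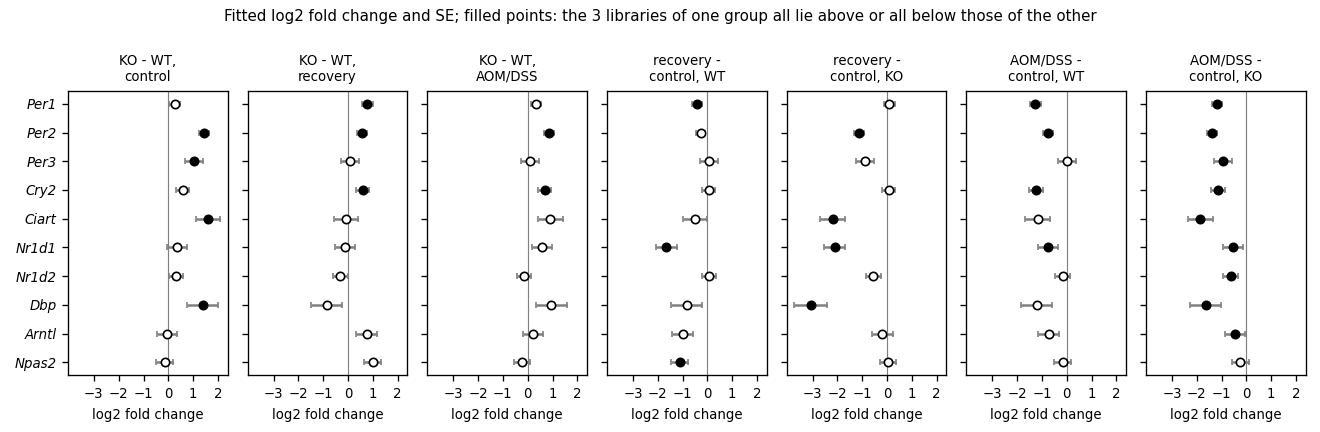
Log2FC of the 10 members in the 7 comparisons, with the SE of the fit as bars; filled points mark comparisons in which the 3 libraries of one group all lie on one side of the 3 of the other. *Per2* lies to the right of 0 in all 3 genotype comparisons, and 9 filled points lie to the left of 0 in *Cldn2*KO AOM/DSS against control.

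Ordered by group mean, the *Cldn2*KO controls were highest for 6 members (*Per2*, *Per3*, *Ciart*, *Nr1d1*, *Nr1d2* and *Dbp*), *Cldn2*KO recovery for *Per1* and *Cry2*, and the WT controls for *Arntl* and *Npas2*. The WT AOM/DSS group was lowest for 5 members. Most neighbouring groups in that order overlapped. For *Dbp* and *Ciart* the step from *Cldn2*KO to WT controls was the single one in which no libraries overlapped. For *Per1* they lay between WT control and WT recovery and between WT recovery and *Cldn2*KO AOM/DSS, and for *Cry2* between *Cldn2*KO control and WT recovery and between the AOM/DSS groups. For *Per2* such steps lay between *Cldn2*KO control and *Cldn2*KO recovery and between WT recovery and WT AOM/DSS. For *Per3*, *Nr1d1*, *Nr1d2*, *Arntl* and *Npas2* no neighbouring groups differed beyond their spread. Per kilobase of exon, *Nr1d2* was the highest member over the 18 libraries (26.6 CPM per kb), followed by *Nr1d1* (17.9) and *Dbp* (16.3), and *Npas2* was the lowest (3.56).

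Libraries of one group also differed from each other. *Per3*, *Nr1d2* and *Dbp* were highest in the same library in 6 of 6 groups, and the library highest in *Ciart* was the lowest in *Npas2* in 6 of 6 groups. Other pairs of members did not move so closely. The library highest in *Nr1d1* was the lowest in *Arntl* in 1 group. The deviations from the group means had r = -0.253 between *Per1* and *Nr1d1* and r = -0.027 between *Per1* and *Per2*. The library highest in *Dbp* was the lowest in *Npas2* in 4 groups and the lowest in *Arntl* in 3. WT recovery replicate 2 had the highest ratio of *Dbp* to *Arntl*, with 28.7 CPM of *Dbp* and 4.81 of *Arntl* against 8.99 to 10.5 and 15.2 to 18.8 in the other two. Per kilobase, *Dbp* was 10.3 times *Arntl* in that library and 0.961 and 1.02 times in the others. WT recovery replicate 2 also had the lowest TMM factor (0.778) and the fewest genes with reads (21113) of the 18 libraries. Their part in the ratio was not tested. In the WT controls the ratio was 5.91 in replicate 2 and 1.39 and 0.996 in replicates 1 and 3. *Cldn2*KO recovery replicate 2 stood at the other end, with a ratio of 0.192 against 1.22 and 0.902. The *Cldn2*KO controls were alike (4.56, 5.17 and 5.97), all above WT control replicates 1 and 3. Within groups the largest *Dbp* difference between libraries was 4.49-fold and the largest *Arntl* difference 3.92-fold. The library with the highest smooth muscle sum was also the highest in *Ciart* and *Nr1d1* in 5 of 6 groups and in *Dbp* in 3. It was the lowest in *Npas2* in 5 groups, but the highest in *Cry2* in 2 and in *Per1* in 1. That sum was not tested for its part in these differences.

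**Figure D4:**
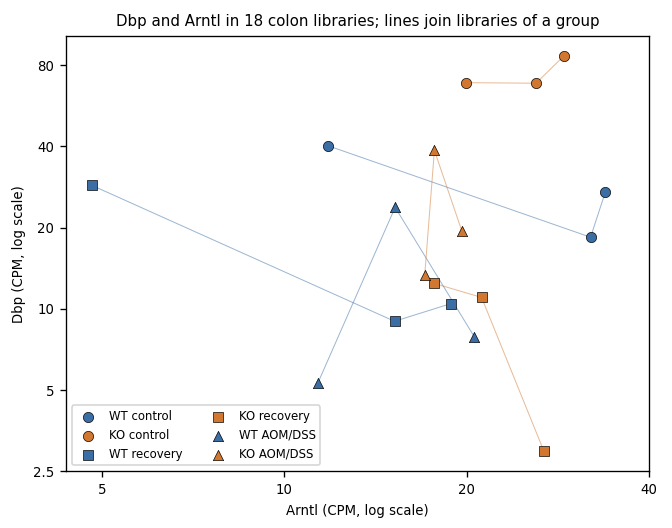
*Dbp* against *Arntl*, both in TMM-scaled CPM on log axes, in 18 libraries; colours and symbols are as in the plot of member levels, and thin lines join the 3 libraries of a group. The *Cldn2*KO controls (*Dbp* 68.6 to 86.4 CPM) lie at the top, and WT control and WT recovery replicate 2 lie left of the rest of their groups.

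The genes most like the members were found by the Pearson correlation of log2 CPM over 18 libraries with a clock profile (mean z of the 8 period, cryptochrome and output members minus mean z of *Arntl* and *Npas2*), among 12857 genes. The closest were *Ccdc85b* (r = 0.850), *Il15* (0.804), *Drc3* (0.777), *Cacnb3* (0.771) and *Emc9* (0.761). The most opposite were *Aqr* (-0.836), *Taf1* (-0.818), *Sec23b* (-0.805), *Cep192* (-0.797) and *Pspc1* (-0.795). These are the ends of a ranking, the libraries share groups and depth, and r carries no test here. The profile was highest in WT recovery replicate 2 (3.14), followed by WT control replicate 2 (1.435). Those libraries also had the lowest TMM factors (0.778 and 0.866), so the ranking may rest on how they differ from the rest. *Ccdc85b* was 14.8 CPM on average in WT and 22.2 CPM in *Cldn2*KO controls, and within groups its deviations from the group means had r = 0.803 with those of the profile.

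The 18 other clock genes were tested with edgeR's quasi-likelihood test, with Benjamini-Hochberg adjustment over 16937 genes. All 18 passed the count filter. Between WT recovery and control, 2 rose and 3 fell, 5 of 18 where 22.2% of all genes were called. *Nfil3*, the repressor of D-box genes, rose from 1.53, 2.03 and 2.08 to 10.9, 5.45 and 11.5 CPM (log2FC 2.31 ± 0.54, adjusted p = 0.00814). *Nampt*, the rate-limiting enzyme of NAD salvage, rose by a log2FC of 0.45 ± 0.14 (adjusted p = 0.0282). *Hlf*, a D-box activator, fell from 8.30, 10.8 and 5.59 to 1.79, 2.01 and 1.36 CPM (log2FC -2.26 ± 0.51, adjusted p = 0.00643). *Bhlhe41*, an E-box repressor, and *Csnk1d*, a kinase of the PER proteins, fell by log2FC of -1.68 ± 0.52 and -0.50 ± 0.16 (adjusted p = 0.0322 and 0.0318). Without WT control replicate 2 the count was again 5, with *Nfil3*, *Nampt*, *Hlf* and *Csnk1d* still called, *Cry1* called (log2FC 1.07 ± 0.33) and *Bhlhe41* not (log2FC -1.58 ± 0.57, adjusted p = 0.0548). With each of the 6 libraries left out in turn, *Nfil3* and *Hlf* were called 6 of 6 times, *Nampt* and *Csnk1d* 2 of 6 and *Bhlhe41* 1 of 6 (not without any 1 control, WT recovery replicate 1 or 3).

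Between *Cldn2*KO recovery and control, 3 rose and 4 fell, 7 of 18 where 19.4% of all genes were called. *Nfil3* again rose most, from 1.48, 0.610 and 1.08 to 11.3, 19.995 and 9.40 CPM (log2FC 3.67 ± 0.58, adjusted p = 0.000874). *Cry1*, the stronger of the cryptochrome repressors, rose from 14.8, 20.2 and 20.8 to 32.3, 59.5 and 37.6 CPM (log2FC 1.22 ± 0.35, adjusted p = 0.0237), and *Nampt* by 0.49 ± 0.14 (adjusted p = 0.0203). *Hlf* fell from 6.46, 7.82 and 9.36 to 2.84, 1.99 and 1.43 CPM (log2FC -1.92 ± 0.50, adjusted p = 0.0141). *Tef*, its relative, fell from 203, 222 and 185 to 130.3, 71.7 and 83.1 CPM (log2FC -1.10 ± 0.34, adjusted p = 0.0319). *Bhlhe41* and *Tsc22d3*, a glucocorticoid-induced gene with a daily rhythm, fell by log2FC of -2.17 ± 0.53 and -1.12 ± 0.32 (adjusted p = 0.0106 and 0.0219). The list medians were -0.42 in WT and -0.11 in *Cldn2*KO mice. With the posterior Hox class (*Hoxb13* above 10 CPM) as a covariate, 2 genes were called in WT, *Hlf* and *Usp2*, and 0 in *Cldn2*KO mice, so that the *Nfil3* call was lost in both genotypes. With each of the 6 libraries left out in turn, *Nfil3* and *Bhlhe41* were called 6 of 6 times in *Cldn2*KO mice, *Hlf* 4, *Nampt* 3, *Cry1* and *Tsc22d3* 2 and *Tef* 1, and all of those except *Nfil3* and *Bhlhe41* were lost without *Cldn2*KO recovery replicate 2.

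Between WT AOM/DSS and control, 3 fell and 0 rose, where 10.4% of all genes were called. *Usp2*, a rhythmic deubiquitinase, fell from 26.3, 79.3 and 24.6 to 7.07, 5.56 and 3.69 CPM (log2FC -2.99 ± 0.47, adjusted p = 0.00455), and by -2.24 ± 0.37 without WT control replicate 2. *Hlf* (-2.38 ± 0.51, adjusted p = 0.0159) and *Tsc22d3* (-1.52 ± 0.32, adjusted p = 0.0154) fell too. Without that library all 3 were still called, while *Hlf* and *Tsc22d3* were not without WT AOM/DSS replicate 3 (adjusted p = 0.0667 and 0.0697). In *Cldn2*KO mice *Tsc22d3* was called, from 106, 132 and 149 to 47.02, 47.2 and 27.7 CPM (log2FC -1.67 ± 0.32, adjusted p = 0.0479), where 0.195% of all genes were called. That call was lost with upper-quartile scaling, without a filter, with the sex-linked (*Xist*) covariate and without any 1 of 5 of the 6 libraries (all except *Cldn2*KO AOM/DSS replicate 2), with adjusted p from 0.0434 to 0.316 when 1 library was left out. *Usp2* stood at 28.8, 41.1 and 39.4 and 5.80, 14.2 and 5.46 CPM in those groups, with no overlap (log2FC -2.09 ± 0.45, edgeR adjusted p = 0.0818). It was called there by DESeq2 (log2FC -2.10, adjusted p = 0.000742) and by edgeR with the posterior Hox covariate (log2FC -2.09, adjusted p = 0.0118). The posterior Hox covariate ended the WT call of *Hlf*. A fit of the groups compared alone ended all 3 WT calls, and 5 were then called in *Cldn2*KO mice.

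Between genotypes, *Bhlhe40*, an E-box repressor that also answers to hypoxia and inflammation, was the 1 other clock gene called with edgeR, in recovery, where 0.974% of all genes were called. It was 86.4, 54.01 and 83.3 CPM in WT and 131, 231 and 234 CPM in *Cldn2*KO mice (log2FC 1.41 ± 0.27, adjusted p = 0.0296). It was not called in a fit of the groups compared, with the sex-linked (*Xist*) covariate, or without WT recovery replicate 2 or 3 or *Cldn2*KO recovery replicate 2, with adjusted p from 0.00963 to 0.183 when 1 library was left out. DESeq2 called 2 genes in recovery, *Bhlhe40* and *Csnk1d*. In controls 0 of 18 were called, where 1.17% of all genes were, 3 had an unadjusted p under 0.05, and DESeq2 called 0. *Tef* was 105, 192 and 87.1 CPM in WT and 203, 222 and 185 CPM in *Cldn2*KO controls (log2FC 0.67 ± 0.33, adjusted p = 0.418). Its log2FC without WT control replicate 2 was 1.06 ± 0.33 (adjusted p = 0.184) and the groups no longer overlapped. After AOM/DSS 0 were called, where 0.0059% of all genes were, 2 had an unadjusted p under 0.05, and DESeq2 called 0. Whether the response to treatment differed between genotypes was tested as an interaction. For recovery 0 of 18 were called (2 at an unadjusted p under 0.05, 0 by DESeq2), where 0.13% of all genes were called. For AOM/DSS 0 of 18 were called (0 at an unadjusted p under 0.05, 0 by DESeq2), where 0.0118% of all genes were called.

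The other 8 genes of the list, *Clock*, *Arntl2*, *Rora*, *Csnk1e*, *Btrc*, *Gsk3b*, *Tspan4* and *Wee1*, were called in no group comparison with edgeR. DESeq2 called *Tspan4* in *Cldn2*KO recovery (adjusted p = 0.0276) and *Arntl2* and *Csnk1e* in WT AOM/DSS (adjusted p = 0.0456 and 0.0314). Their log2FC ran from -0.97 (*Tspan4*) to 1.40 (*Arntl2*). *Clock*, the partner of ARNTL, stood at 151, 98.8 and 171 CPM in WT and 169, 181 and 114 CPM in *Cldn2*KO controls. Its lowest library, as that of *Arntl*, was WT recovery replicate 2 (88.1 CPM). WT control replicate 2 was the next for *Clock* (98.8 CPM). *Bhlhe40*, *Bhlhe41*, *Rora*, *Tef*, *Csnk1d*, *Csnk1e*, *Usp2* and *Tspan4* overlap a gene on the other strand, so their counts are uncertain.

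**Figure D5:**
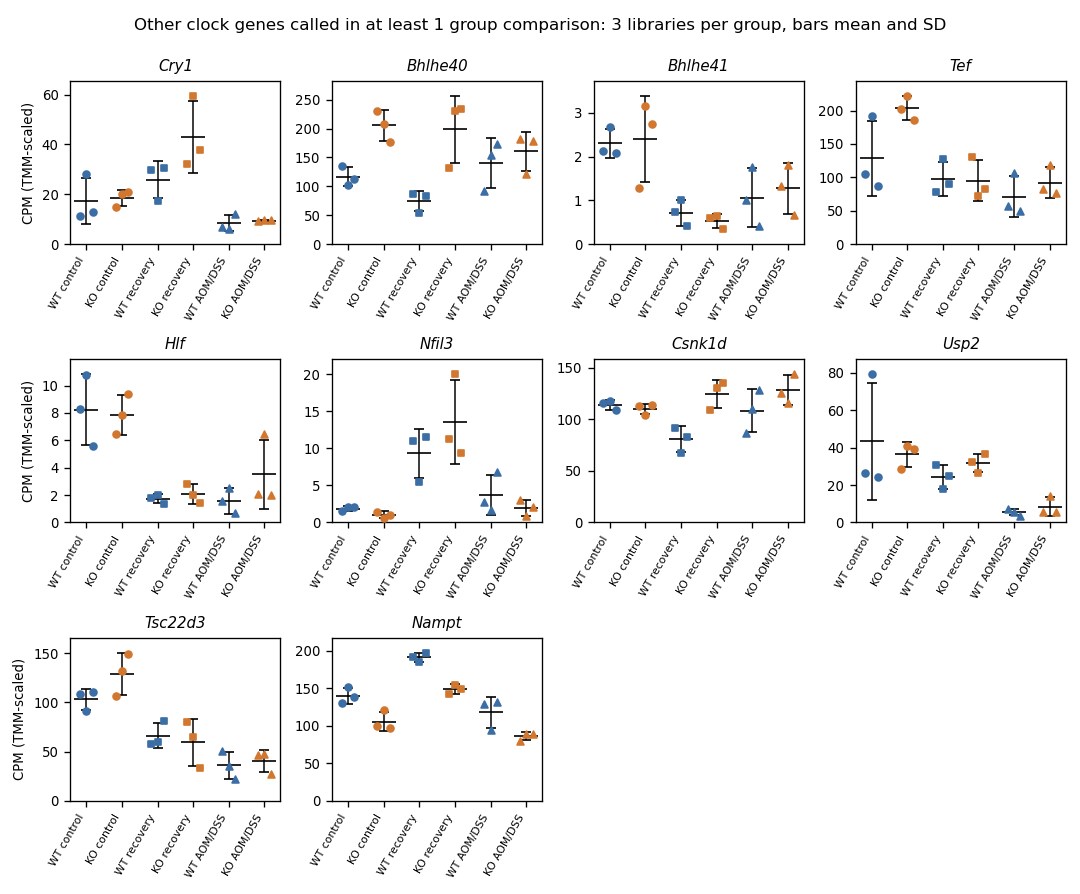
Levels, in TMM-scaled CPM on the y axis, of the 10 other clock genes called in at least 1 group comparison, in the 3 libraries of each group (blue WT, orange *Cldn2*KO; circles control, squares recovery, triangles AOM/DSS), with mean and SD as black bars. *Nfil3* is high and *Hlf* and *Bhlhe41* are low in the recovery libraries of both genotypes, and *Usp2* is low in the AOM/DSS libraries.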

How the data were processed

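RNA of 18 colon samples was sequenced on an Illumina NovaSeq instrument. The submitters' processing notes list HISAT2, featureCounts, Subread and GRCm38, and the study's methods name TopHat2, featureCounts and DESeq2. Versions, the use of strand and of multi-mapping reads are not given in the sources used here, so overlapping genes are called uncertain. The authors deposited read counts for each gene without normalization. The 36 columns hold 18 libraries, each on 2 lanes. Every column matched 1 library, and 0 were left out. Of 47729 genes, 47310 matched GENCODE M21 for symbols. The 2 lanes were added (chi-square over degrees of freedom of 1.08 to 1.17 between lanes, at least 10.98 between replicates of a group).

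Genes were kept with filterByExpr (16937 kept, 30792 not), scaled by TMM and fitted with edgeR 4.0.16 (quasi-likelihood, robust, 1 mean per group, R 4.3.3). A call is a Benjamini-Hochberg adjusted p below 0.05. The biological coefficient of variation was 0.315. The script was tested on simulated counts. Nothing in the labels states that libraries of a group came from separate mice, so p-values measure the spread between these samples. Alternatives were RLE and upper-quartile scaling, other filters, DESeq2 1.42.0, fits of the groups compared, covariates for *Xist* (above 100 CPM) and *Hoxb13* (above 10 CPM), leaving out each library, and a replicate block in controls.

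The members and lists were chosen with earlier results of these data known, and a few genes of the lists are not reported here. Named were all members, the other clock genes called in a group comparison, and the 5 genes most and least like the clock profile. Genes singled out beyond that, and values without WT control replicate 2, were chosen after the values were seen. Promoters came from RefSeq (GRCm38.p6) and were searched on both strands. Smooth muscle, leukocyte, fibroblast, neuron and glia, epithelial, colon, small intestine, adipose and posterior Hox lists were summed as CPM.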

Additional observations from a re-analysis of the deposited data

Results flagged for a closer look

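The difference between genotypes in *Dbp* changed sign between treatments. In controls each *Cldn2*KO library lay above the WT mean (log2FC 1.38), and in recovery each lay below it (log2FC -0.86), a difference of 2.245 on the log2 scale. After AOM/DSS each *Cldn2*KO library lay above the WT mean again (log2FC 0.95), so recovery and AOM/DSS differed by -1.812. In recovery the WT mean rested on replicate 2, at 28.7 CPM against 10.5 and 8.99 CPM in the others, and the libraries of the genotypes overlapped. Without that library the log2FC was -0.17 ± 0.64. *Nfil3* had the opposite order, with each *Cldn2*KO library above the WT mean in recovery (log2FC 0.54) and below it after AOM/DSS (log2FC -0.91), a difference of 1.447. After AOM/DSS the WT mean rested on replicate 3, at 6.81 CPM against 2.71 and 1.71 CPM, and without it the log2FC was -0.15 ± 0.51. None of these 3 differences was tested.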

How the results depend on the processing

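For the other clock genes, calls in WT recovery against control (5) became 3 without a filter, 3 in a fit of the groups compared, 2 with the sex-linked covariate and 2 with the posterior Hox covariate, and 2 to 5 when 1 library was left out. Those in *Cldn2*KO recovery (7) became 3 with the sex-linked and 0 with the Hox covariate, and 2 to 7. Those in WT AOM/DSS (3) became 6 with DESeq2, 0 in a fit of the groups compared, and 1 to 5. Those in *Cldn2*KO AOM/DSS (1) became 0 with upper-quartile scaling, without a filter or with the sex-linked covariate, 3 with DESeq2, 5 in a fit of the groups compared, 2 with the Hox covariate, and 0 to 2. Between genotypes in recovery (1) there were 2 with DESeq2, 0 in a fit of the groups compared, 0 with the sex-linked and 2 with the Hox covariate, and 0 to 2.

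Over all genes, calls in WT recovery (3767) became 1819 in a fit of the groups compared, 2359 with the sex-linked and 1477 with the Hox covariate, and 1846 to 4350 when 1 library was left out. Those in *Cldn2*KO recovery (3291) became 1887 with the sex-linked and 133 with the Hox covariate, and 1972 to 2827. Those in WT AOM/DSS (1761) became 943 without a filter, 3033 with DESeq2, 7 in a fit of the groups compared, 320 with the Hox covariate, and 170 to 1696. Those in *Cldn2*KO AOM/DSS (33) became 601 with DESeq2, 920 in a fit of the groups compared, 5 with the sex-linked and 176 with the Hox covariate, and 4 to 211. Between genotypes in controls (199) there were 688 with DESeq2, 131 in a fit of the groups compared, and 25 to 300. In recovery (165) there were 71 without a filter, 1370 with DESeq2, 23 in a fit of the groups compared, 56 with the sex-linked and 538 with the Hox covariate, and 3 to 453. After AOM/DSS (1) there were 4 with DESeq2, and 1 to 2. The interaction for recovery (22) gave 12 with upper-quartile scaling, 931 with DESeq2, 9 in a fit of the groups compared, 6 with the sex-linked covariate, and 0 to 313. That for AOM/DSS (2) gave 4 without a filter, 87 with DESeq2, 0 in a fit of the groups compared, 5 with the Hox covariate, and 0 to 11. The causes were not tested.

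The replicate block, run on the 6 control libraries, gave 21 calls over all genes, against 131 for the same libraries without it, and 0 of 18 other clock genes with or without it. Same-numbered controls had correlations of 0.157, 0.002 and 0.079 between their deviations from the group means, so the numbers were not taken to pair mice.

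Of the members' log2FC under all alternatives, 1362 of 1390 moved by less than the spread between libraries and 27 moved by more. The remaining 1 changed sign from a value larger than that spread. That of *Arntl* in WT recovery against control went from -0.99 to 0.145 with the posterior Hox covariate, which sets recovery against WT control replicate 2 alone. Values smaller than the spread could change sign without being counted as reversed. That of *Ciart* in WT recovery went from -0.497 to 0.088 without WT control replicate 2. The median of the 8 members ran from -0.679 to -0.059 in WT recovery and from -0.210 to 0.435 between genotypes in recovery, and it changed sign in the latter. The largest absolute median log2FC of all genes in any comparison or interaction was 0.047 with TMM, 0.035 with RLE and 0.092 with upper-quartile scaling. With 3 libraries per group and an unknown hour of sampling, the spread within groups (up to 4.49-fold for *Dbp*) limits what can be called.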

Other observations

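Of 6 genes that answer to glucocorticoids, the hormones that carry daily time to many tissues, 2 were called in each recovery comparison. In each, 1 was higher and 1 lower, where 22.2% (WT) and 19.4% (*Cldn2*KO) of all genes were called. After AOM/DSS 3 were called lower in WT mice (10.4% of all genes) and 1 in *Cldn2*KO mice (0.195%). The 6 listed genes summed to 417 to 727 CPM in WT controls and 658 to 761 CPM in *Cldn2*KO controls. In recovery the sums were 546 to 1330.4 CPM in WT and 1046 to 2153 CPM in *Cldn2*KO mice. After AOM/DSS they were 143 to 201 and 151 to 249 CPM. *Fkbp5*, a chaperone of the glucocorticoid receptor, rose in recovery in WT (log2FC 1.77 ± 0.50, edgeR adjusted p = 0.0218) and in *Cldn2*KO mice (2.67 ± 0.52, adjusted p = 0.0031) and fell after AOM/DSS in WT mice (-2.48 ± 0.52, adjusted p = 0.0159). *Sgk1*, a kinase that promotes sodium uptake, fell after AOM/DSS in WT mice (-2.30 ± 0.51, adjusted p = 0.0188). *Tsc22d3*, which is on this list and on that of the other clock genes, fell in *Cldn2*KO recovery. *Klf9* fell in WT recovery (-0.79 ± 0.27, edgeR adjusted p = 0.0495). The list therefore did not move one way in either recovery comparison. In *Cldn2*KO mice *Sgk1* had a log2FC of -2.46 ± 0.51 after AOM/DSS (adjusted p = 0.0692) and *Fkbp5* one of -1.70 ± 0.51 (adjusted p = 0.154), and 5 of the 6 genes were lower in every library than in control (29.1% of all genes did not overlap). DESeq2 called both there, and also *Zbtb16* in WT AOM/DSS and *Dusp1* between genotypes in recovery, which edgeR called in no comparison. When 1 library was left out, *Fkbp5* in *Cldn2*KO recovery was called 6 of 6 times and in WT recovery 3 of 6, *Fkbp5* and *Sgk1* in WT AOM/DSS each 4 of 6 (not without WT control replicate 2 or WT AOM/DSS replicate 3), and *Klf9* 2 of 6. With the posterior Hox covariate the *Fkbp5* calls were lost in all 3 comparisons, as were those of *Sgk1* in WT AOM/DSS and *Klf9* in WT recovery. In the recovery comparisons that covariate rests on WT control replicate 2 alone. *Sgk1* in *Cldn2*KO AOM/DSS was called with that covariate (log2FC -2.46, adjusted p = 0.0194). *Fkbp5* and *Sgk1* in WT AOM/DSS were also lost in a fit of the groups compared, and *Fkbp5* in WT recovery without a filter. The *Klf9* call was also lost with RLE scaling, without a filter, in a fit of the groups compared and with the sex-linked covariate.

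Of 7 immediate-early genes, which answer within minutes to handling and growth signals, 3 fell in WT recovery against control, where 22.2% of all genes were called: *Fos* (-2.01 ± 0.64, edgeR adjusted p = 0.0351), *Junb* (-1.02 ± 0.32, adjusted p = 0.0329) and *Atf3* (-1.64 ± 0.55, adjusted p = 0.0436). *Junb* was called 0 of 6 times when 1 library was left out, and *Fos* and *Atf3* each 1 of 6. All 3 calls were lost without a filter and with the posterior Hox covariate, which sets WT recovery against WT control replicate 2 alone. Those of *Fos* and *Junb* were also lost with the sex-linked covariate. DESeq2 called all 3 and also *Fosb* (log2FC -2.71, adjusted p = 0.00727). In *Cldn2*KO recovery 0 were called with edgeR (0 at an unadjusted p under 0.05, 0 with DESeq2), where 19.4% of all genes were called. Between genotypes in recovery all 7 had a log2FC above 0, with a median of 0.81 (0.004 over all genes). Of the 7, 1 was higher in every *Cldn2*KO library, where 23.9% of all genes did not overlap. There edgeR called 0 (3 at an unadjusted p under 0.05), where 0.974% of all genes were called, and DESeq2 called *Fosb* (log2FC 3.29, adjusted p = 0.00442). The interaction for recovery called 0 of 7 (2 at an unadjusted p under 0.05, 0 with DESeq2), where 0.13% of all genes were called.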
